A study of Rattus norvegicus with 10 samples.

Results

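The nuclear genes of respiratory complexes II to V were examined in the left ventricle of male Sprague-Dawley rats on day 3 after gene transfer, in 5 samples after transfer of GATA-4 and 5 after transfer of LacZ, the bacterial beta-galactosidase gene. Genes were taken by their symbol on the array platform: Sdha to Sdhd, Cyc1, Cycs, and every symbol beginning with Uqcr, Atp5, Cox4, Cox5, Cox6, Cox7 or Cox8. This gave 45 genes with a probe set of their own, of 14217 such genes on the array: 4 of complex II, 8 of complex III, 17 of complex IV and 16 of complex V. Each gene was read by its brightest probe set, and 44 of the 45 passed the filter on dim signals, as did 10688 genes in all. Cox7b2, at a mean log2 signal of 2.81, did not pass. Cycs, Uqcrb, Cox7a2, Atp5mc1 and Atp5mc2 had only probe sets listed for several genes and are given no value. One entry, Cox6c-ps1, is a transcribed pseudogene whose probe set may also read Cox6c. The source label separated the groups, since every sample title names GATA-4. What carried the genes, and where it was injected, was not stated in the labels. The labels do not say outright that samples are separate animals, and the p-values measure only the spread between these samples.

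The respiratory chain passes electrons along the inner mitochondrial membrane. Complex II, succinate dehydrogenase, takes them from the citric acid cycle to coenzyme Q, complex III passes them to cytochrome c, and complex IV, cytochrome c oxidase, hands them to oxygen. Complexes III and IV pump protons, and complex V, ATP synthase, makes ATP from the proton gradient, the main source of ATP for the beating heart.

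GATA-4 array 1 stood apart from the other arrays. Its 2%-trimmed mean signal was 142, against 249 to 329 on the other 9 arrays, and it is called the dim array here. Gata4, the transferred gene and a cardiac transcription factor, had a log2 signal of 11.44 ± 0.14 on GATA-4 arrays and 10.65 ± 0.13 on LacZ arrays (SD, n = 5 each), a difference of 0.79 (SE 0.086; limma adjusted p = 0.00131). RNA integrity, read as the log2 ratio of 3' to 5' control probe sets, came to 1.07 ± 0.17 on GATA-4 arrays and 1.08 ± 0.25 on LacZ arrays (SD, n = 5; exact two-sided permutation p = 0.984). All levels below are log2 signals after quantile normalization, and all differences are GATA-4 minus LacZ on that scale. The words rose and fell are kept for an adjusted p under 0.05 in limma.

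With quantile normalization and all 10 arrays, Sdhd of complex II and Atp5mpl of complex V fell and the other 42 genes did not pass the test. Signals were 1.13-fold lower for Sdhd and 1.18-fold lower for Atp5mpl. None of the 44 rose. At an unadjusted p under 0.05 stood 14 of the 44 genes, beside 2585 of all 10688 genes tested. Of the 14, Atp5if1 alone was higher with GATA-4. The share that fell, 2 of 44 or 4.55%, compares with 2.66% over all genes tested, and the share that rose with 3.71%. Genes of these complexes are bright: 39 of the 44 lay at or above the 97th percentile of signal. Among the 1302 genes at or above the level of the members' 10th percentile, a comparison chosen with earlier results known, 482 had an unadjusted p under 0.05. Of the same 1302 genes 8.53% fell, more than the 4.55% here. This reading depends on the scaling and on the arrays kept. With each array centred on its median and all 10 kept, none of the 44 fell. Under quantile normalization without GATA-4 array 1, 7 fell (15.9%), against 8.86% of all genes and 21.2% of genes as bright. With both changes together 25 of 44 genes fell (56.8%), against 9.45% of all genes and 29.7% of genes as bright. The share in complexes II to V was then above that of genes as bright, and the difference between these shares was not tested.

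Most differences were negative all the same. Of the 44 genes 36 (81.8%) read lower with GATA-4, against 52.6% of all genes tested and 58.6% of the bright genes. The median difference was -0.081, beside -0.017 over all genes and -0.052 over the bright ones. Every GATA-4 array lay below every LacZ array for 10 genes: Sdha, Sdhd, Uqcr11, Uqcrc2, Uqcrfs1, Atp5f1c, Atp5mpl, Atp5pd, Atp5pf and Atp5po. That is 22.7% of the 44, where the same held for 5.10% of all genes and 11.7% of the bright genes. No gene of the 4 complexes had every GATA-4 array above every LacZ array, against 4.56% of all genes. Without GATA-4 array 1, the remaining GATA-4 arrays lay below every LacZ array for 27.3% of the 44. The same then held for 9.72% of all genes and 20.6% of genes as bright. In bulk tissue, fewer cells of a type and less RNA per cell cannot be told apart.

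Within the quantile-normalized values these genes were tightly measured. The median standard error was 0.049, against 0.085 over the bright genes and 0.14 over all genes. For 35 of the 44 the 95% interval lay within a 1.25-fold change in either direction, and for the other 9 it did not. The same held for 566 of the 1302 bright genes and 1834 of all 10688. These intervals do not cover the choice of scaling. Under median centring the median difference was -0.16, and -0.26 with GATA-4 array 1 also left out, where Uqcrc1 differed by -0.40. In that last setting the median was -0.039 over all genes and -0.163 over genes as bright. There the median standard error of the 44 genes was 0.079, and only 2 of the 44 intervals lay within 1.25-fold. Of the 1344 genes as bright, 389 did so. Only Cox6b2, a dim gene, had a difference beyond 1.25-fold as reported, and it did not pass the test. Whether signals near the top of the array's range under-read a difference was not tested.

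**Figure D1:**
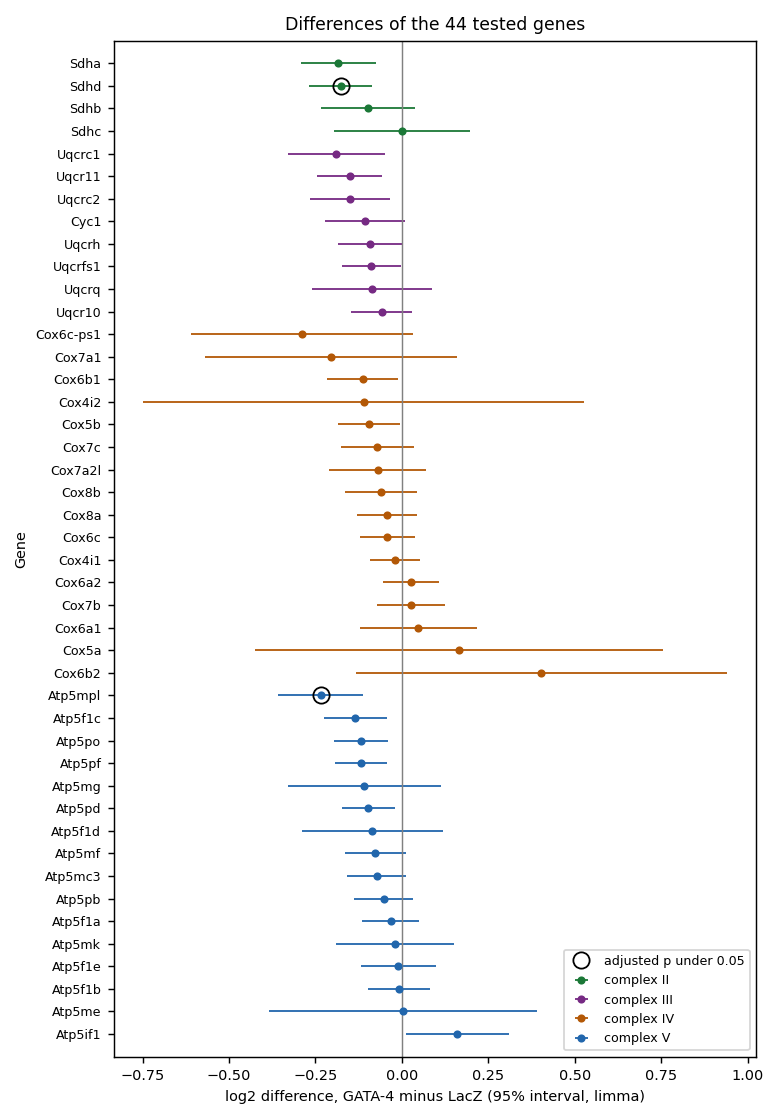
Each row is 1 of the 44 tested genes, grouped by complex, with the log2 difference GATA-4 minus LacZ (point) and its 95% interval from limma (line, 5 arrays a group). Points lie left of 0 for 36 genes, and the ringed Sdhd and Atp5mpl are those with an adjusted p under 0.05.

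The dim array differed from the other GATA-4 arrays in this set of genes. It held the highest of the 10 values for 14 of the 44 genes and the lowest for 7. The mean deviation of the 44 genes from their 10-array means averaged 0.077 on the dim array and lay between -0.12 and -0.0069 on GATA-4 arrays 2 to 5, against -0.016 to 0.084 on LacZ arrays. Cox5a and Cox4i2, both dim, carried most of that value, with deviations of 1.35 and 1.12 on the dim array. Over the other 42 genes the mean there was 0.022, a comparison chosen after the values were seen. Without the dim array 7 of 44 genes fell (15.9%): Sdha, Sdhd, Uqcr11, Uqcrc1, Atp5mpl, Atp5pf and Atp5po. The share over all genes was then 8.86%, and 21.2% among genes as bright, so the share here was below that of genes as bright. The median difference without that array was -0.088.

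**Figure D2:**
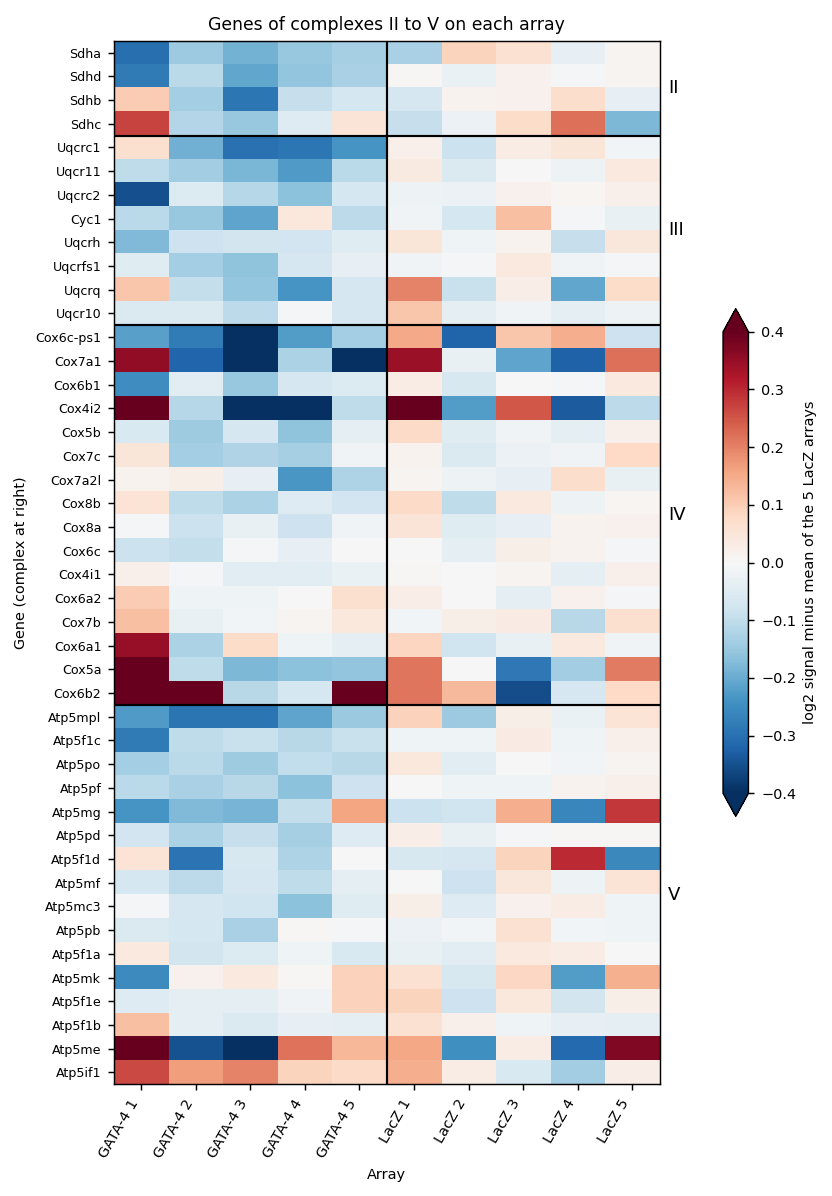
Rows are the 44 tested genes by complex, columns the 10 arrays, and the colour is the log2 signal minus the mean of the 5 LacZ arrays (scale ends at 0.4 in either direction). Between 34 and 41 of the 44 genes lie below the LacZ mean on GATA-4 arrays 2 to 5 and 24 on GATA-4 array 1, against 12 to 37 on LacZ arrays (37 on LacZ array 2). GATA-4 array 1 holds the highest value of the 10 arrays for 14 genes and the lowest for 7.

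The stretches before the transcription start of 3 genes are shown because they belong to the pair that fell and to the gene with the smallest p without the dim array (Uqcrc1). Each is the 250 bases before the start, 5′ to 3′ along the gene, from RefSeq's promoter table (build GRCr8), which matched 38 of the 45 genes. Sdhd lies at chr8:59850642-59850891 (minus strand), Atp5mpl at chr6:136845641-136845890 (minus strand) and Uqcrc1 at chr8:118467973-118468222 (plus strand), and each ends at the gene's annotated outer start. Capitals mark a word searched for on both strands: AGATAA or TGATAA, words of the GATA factors; GCGCATGC, a word of nuclear respiratory factor NRF-1; and CCGGAAG, a word of ETS factors such as GABP.
Sdhd: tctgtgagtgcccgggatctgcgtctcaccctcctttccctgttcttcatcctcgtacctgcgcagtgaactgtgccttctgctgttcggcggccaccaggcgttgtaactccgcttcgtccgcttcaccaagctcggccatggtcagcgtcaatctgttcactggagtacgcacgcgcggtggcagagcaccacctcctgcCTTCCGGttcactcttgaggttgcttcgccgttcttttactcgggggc
Atp5mpl: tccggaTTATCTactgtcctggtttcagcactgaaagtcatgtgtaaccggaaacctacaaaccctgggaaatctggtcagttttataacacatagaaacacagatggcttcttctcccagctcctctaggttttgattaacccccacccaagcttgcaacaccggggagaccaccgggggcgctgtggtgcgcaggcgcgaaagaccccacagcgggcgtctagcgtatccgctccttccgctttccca
Uqcrc1: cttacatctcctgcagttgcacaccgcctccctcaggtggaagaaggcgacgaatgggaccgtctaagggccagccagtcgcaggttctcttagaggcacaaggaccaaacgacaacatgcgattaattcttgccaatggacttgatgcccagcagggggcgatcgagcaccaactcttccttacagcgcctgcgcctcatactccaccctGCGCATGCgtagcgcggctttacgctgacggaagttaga

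The Sdhd window held 1 ETS word, which begins 48 bases before the start, and no GATA word. That of Atp5mpl held 1 GATA word, 244 bases before the start, and that of Uqcrc1 1 NRF-1 word, 39 bases before it. Of the 38 windows 26 end at the outer start of the annotated gene and 12 inside it, at an inner start. The window of Cox7a1, with 3 GATA words, is one of these 12 and ends 19553 bases inside the gene. Over the 38 genes, 9 windows (23.7%) held a GATA word, 5 (13.2%) an NRF-1 word and 12 (31.6%) an ETS word. Over all 33469 windows of the table the shares were 16.9%, 2.20% and 7.27%. Those windows were not limited to genes tested on the array or to genes as bright. The median GC content was 54.4% in the 38 windows and 51.2% in all. In Atp5me and Atp5po the NRF-1 word was found on both strands with an overlap, at a single place each. A word is a description of these letters and does not show that a factor binds there.

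Complex II has 4 subunits, all encoded in the nucleus, and Sdhd alone passed the test with all arrays. Sdhd, a membrane anchor, read 12.72, 12.89, 12.80, 12.84 and 12.87 on GATA-4 arrays 1 to 5, against 13.01, 12.98, 13.02, 13.00 and 13.01 on LacZ arrays 1 to 5. All GATA-4 arrays lay below all LacZ arrays, and after quantile normalization the LacZ arrays differed from each other by little. Means were 12.83 ± 0.069 on GATA-4 arrays and 13.00 ± 0.017 on LacZ arrays (SD, n = 5). The difference was -0.18 (SE 0.043, 95% interval -0.27 to -0.085), with a limma adjusted p of 0.0321. A second Sdhd probe set fell too, with 11.72 ± 0.059 on GATA-4 arrays and 11.94 ± 0.068 on LacZ arrays and a difference of -0.22 (limma adjusted p = 0.0429). When arrays were left out one by one, Sdhd passed in 2 of 10 fits, those without GATA-4 array 1 or 2. Its limma adjusted p reached 0.0998 without LacZ array 3. The small spread of the LacZ arrays depends on the scaling. Under median centring without GATA-4 array 1 their SD for Sdhd was 0.117. With median centring and every array kept, the limma adjusted p of Sdhd was 0.11.

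Sdha, the flavoprotein that oxidises succinate, just missed the threshold. It read 12.97, 13.12, 13.08, 13.12 and 13.13 with GATA-4 and 13.14, 13.36, 13.33, 13.23 and 13.28 with LacZ, so the groups touched without overlap (difference -0.18, SE 0.050, adjusted p = 0.0508 in limma). It passed without GATA-4 array 1 (0.0361) and without LacZ array 1 (0.0449). Sdhb, the iron-sulfur subunit, differed by -0.097 and Sdhc, the other membrane anchor, by 3.3e-04, with limma adjusted p-values of 0.392 and 0.998. The interval of Sdhc, -0.20 to 0.20, does not exclude a difference of the size seen in Sdhd. Without the dim array the differences of Sdha, Sdhb and Sdhd were each -0.14, with no overlap of the groups, and that of Sdhc was -0.064, with overlap. Limma adjusted p-values were then 0.0361, 0.0651, 0.0154 and 0.603 for Sdha, Sdhb, Sdhd and Sdhc. No test compared the subunits with each other.

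All 8 complex III genes read lower with GATA-4, and none passed the test, with 4 at an unadjusted p under 0.05. Their median difference was -0.099, in a range of -0.19 to -0.058. Uqcr11, a small subunit, had the smallest p of the complex. Its signals were 12.64, 12.61, 12.56, 12.52 and 12.64 on GATA-4 arrays and 12.78, 12.69, 12.75, 12.73 and 12.79 on LacZ arrays. The groups did not overlap, and the difference was -0.15 (SE 0.044; limma adjusted p = 0.0632).

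The core subunits Uqcrc1 and Uqcrc2 differed by -0.19 and -0.15 (limma adjusted p = 0.108 and 0.120). Uqcrc1 read 13.10 on the dim array, above every LacZ array, and 12.85, 12.74, 12.75 and 12.80 on GATA-4 arrays 2 to 5, against 13.06, 12.95, 13.07, 13.09 and 13.03 with LacZ. Without the dim array its difference was -0.24 and its limma adjusted p 0.00255. Uqcrc2 went the other way, with 12.86 on the dim array, and between 13.05 and 13.16 on GATA-4 arrays 2 to 5, against 13.19 to 13.23 with LacZ. A second Uqcrc2 probe set differed by -0.19 with an overlap of the groups (limma adjusted p = 0.241).

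Uqcrfs1, the Rieske iron-sulfur protein, differed by -0.089, and Cyc1, cytochrome c1, by -0.11. The hinge protein gene Uqcrh differed by -0.092, and the small subunit genes Uqcrq and Uqcr10 by -0.088 and -0.058. Uqcr10, the gene of this complex with the highest signal, read 13.21, 13.21, 13.16, 13.26 and 13.20 with GATA-4 and 13.38, 13.23, 13.25, 13.23 and 13.25 with LacZ. The value of LacZ array 1 lay above the rest, and the groups overlapped (limma adjusted p = 0.426).

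**Figure D3:**
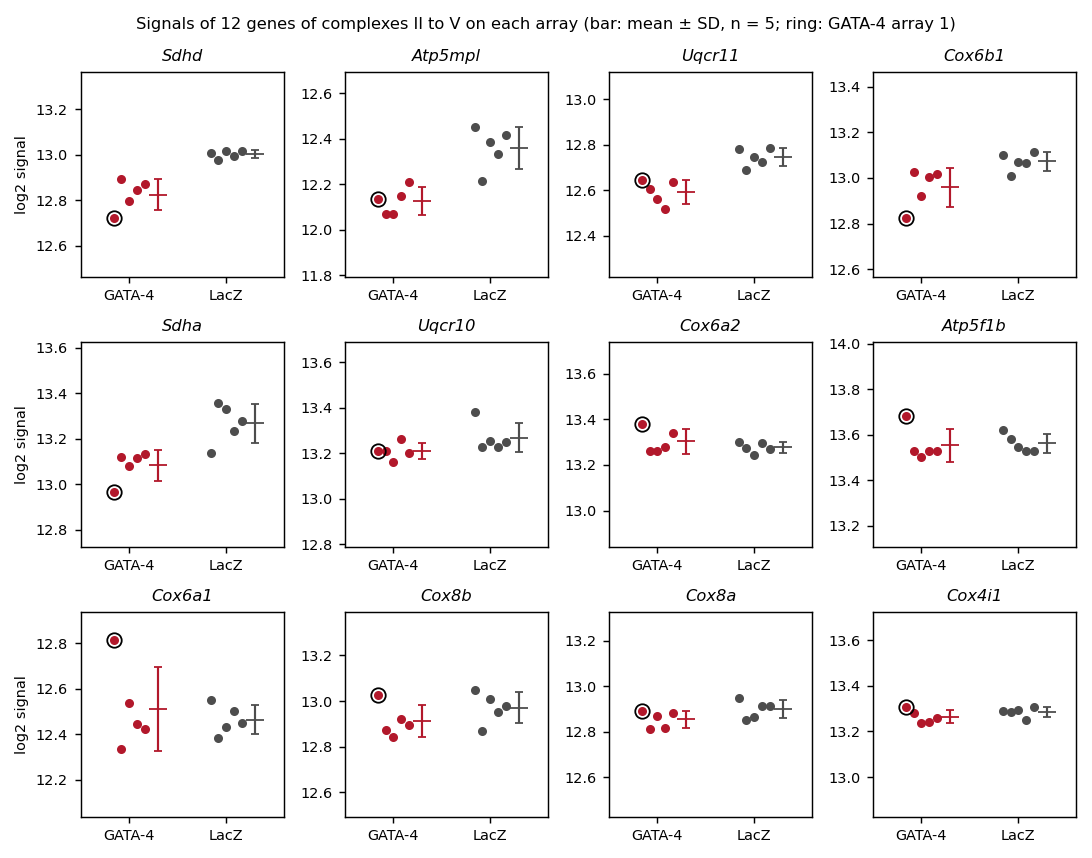
Points are the log2 signals of the 10 arrays for 12 genes, with the mean ± SD beside them (n = 5 a group); each panel spans 0.9 log2 units and the ring marks GATA-4 array 1. Sdhd, Atp5mpl, Uqcr11 and Sdha separate the groups, while Cox6a2, Cox4i1 and Atp5f1b do not.

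Complex IV gave no call. None of its 16 tested genes fell or rose, with Cox5b and Cox6b1 at an unadjusted p under 0.05, and none separated the groups. The median difference was -0.052, with 11 negative and 5 positive. Cox6b1, a subunit on the intermembrane side, had the smallest p, with 12.82, 13.03, 12.92, 13.01 and 13.02 on GATA-4 arrays and 13.10, 13.01, 13.07, 13.07 and 13.11 on LacZ arrays. The difference of -0.11 (SE 0.047) had a limma adjusted p of 0.181. Cox5b, which binds zinc, differed by -0.095 (adjusted p = 0.207 in limma). Under median centring without the dim array Cox4i1, Cox5b, Cox6b1, Cox6c, Cox7c and Cox8b fell, with limma adjusted p-values from 0.0296 to 0.0482. In that setting 29.7% of genes as bright fell.

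Cytochrome c oxidase has subunits in a muscle and a ubiquitous form, and both forms were read. Cox6a2, the heart and muscle form, read 13.38, 13.26, 13.26, 13.28 and 13.34 with GATA-4 and 13.30, 13.28, 13.24, 13.30 and 13.27 with LacZ. Cox6a1, its ubiquitous partner, read 12.81, 12.34, 12.54, 12.45 and 12.42 with GATA-4 and 12.55, 12.38, 12.43, 12.50 and 12.45 with LacZ. The groups overlapped for both genes, and the dim array was the highest of the 10 for each.

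Cox8b, another muscle form, read 13.03, 12.87, 12.84, 12.92 and 12.90 with GATA-4, against 13.05, 12.87, 13.01, 12.95 and 12.98 with LacZ. Cox8a, the ubiquitous form, read 12.89, 12.81, 12.87, 12.82 and 12.88 against 12.95, 12.85, 12.87, 12.91 and 12.92 in the same order of groups. The groups overlapped for both genes.

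Cox4i1, the usual form of subunit IV, read 13.31, 13.28, 13.24, 13.24 and 13.26 with GATA-4 and 13.29, 13.28, 13.30, 13.25 and 13.31 with LacZ, a difference of -0.020 with an interval of -0.092 to 0.053. Cox4i2, the form known from lung and low oxygen, was far more variable, with 8.47, 7.30, 6.48, 6.94 and 7.31 with GATA-4 and 7.82, 7.19, 7.66, 7.08 and 7.31 with LacZ. The dim array held its highest value.

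The balance of paired forms was tested within arrays, as the first form minus the second. For Cox6a2 minus Cox6a1 the groups differed by -0.021 (0.79 ± 0.15 with GATA-4 and 0.81 ± 0.050 with LacZ), for Cox8b minus Cox8a by -0.016 and for Cox4i1 minus Cox4i2 by 0.091. Exact two-sided permutation tests over 252 assignments, with 5 arrays a group, gave p-values of 0.810, 0.675 and 0.841, and 0.841 for each of the 3 after adjustment. The smallest possible p was 0.00794. Cox7a1, the muscle form of subunit VIIa, had no measured partner. It read 10.65, 9.98, 9.84, 10.17 and 9.80 with GATA-4 and 10.64, 10.26, 10.08, 9.97 and 10.51 with LacZ, a difference of -0.21 (limma adjusted p = 0.510). Without the dim array the difference of Cox7a1 was -0.34 (limma adjusted p = 0.0972), with overlap of the groups.

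Cox6c, Cox7c and Cox7a2l, the last linked to the joining of complexes into supercomplexes, differed by -0.043, -0.071 and -0.070, and Cox7b by 0.027. Cox5a was read by a dim probe set of its own. A further probe set, listed for Cox5a and another gene together, is given no value. The dim probe set read 9.46 on the dim array and between 7.85 and 7.93 on GATA-4 arrays 2 to 5, against 7.74 to 8.24 with LacZ. Cox6b2, a form known from testis, differed by 0.40 (SE 0.25; limma adjusted p = 0.369) at a mean signal of 5.60. The pseudogene Cox6c-ps1 differed by -0.29 (adjusted p = 0.275 in limma), and without it 2 of 43 genes fell and the median difference was -0.077.

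Complex V held the other gene that fell. Atp5mpl, a small proteolipid of the membrane part of ATP synthase, read 12.14, 12.07, 12.07, 12.15 and 12.21 with GATA-4, against 12.45, 12.22, 12.38, 12.33 and 12.42 with LacZ. The groups came close at GATA-4 array 5 and LacZ array 2 but did not overlap. The difference was -0.23 (SE 0.057, 95% interval -0.36 to -0.11), with a limma adjusted p of 0.0326. With arrays left out one by one it passed in 3 of 10 fits, without GATA-4 array 1 or 5 or LacZ array 2, and its limma adjusted p reached 0.0983 without LacZ array 3.

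The peripheral stalk, which holds the catalytic head still, read lower in all 4 genes measured. Atp5po, the oligomycin sensitivity protein, read 12.89, 12.92, 12.88, 12.93 and 12.91 with GATA-4 and 13.07, 12.98, 13.02, 13.01 and 13.03 with LacZ. Atp5pf read 13.04, 13.02, 13.04, 12.98 and 13.07 with GATA-4 and 13.15, 13.13, 13.13, 13.16 and 13.17 with LacZ. Neither gene's groups overlapped, and the differences were both -0.12, with adjusted p-values of 0.0740 and 0.0694 in limma. A second Atp5po probe set, dim at a mean of 5.39, differed by -0.34 with overlap (limma adjusted p = 0.414). Atp5pd differed by -0.097 without overlap and Atp5pb by -0.052 with overlap (limma adjusted p = 0.136 and 0.471).

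Of the genes of the catalytic head and the central stalk, only Atp5f1c, the gamma subunit of the stalk, separated the groups. It read 13.28 on the dim array and between 13.45 and 13.47 on GATA-4 arrays 2 to 5, against 13.55 to 13.60 with LacZ (difference -0.13, limma adjusted p = 0.0841). Atp5f1b, the catalytic beta subunit, read 13.68, 13.53, 13.50, 13.53 and 13.53 with GATA-4 and 13.62, 13.58, 13.55, 13.53 and 13.53 with LacZ. Its difference of -0.0079 had an interval of -0.097 to 0.081. Under median centring without the dim array Atp5f1b was -0.23 (limma adjusted p = 0.0485), where Atp5mpl was -0.37. Atp5f1a, Atp5f1d and Atp5f1e differed by -0.033, -0.085 and -0.010.

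Of the other membrane subunits, Atp5mc3 of the proton-carrying ring differed by -0.073, Atp5mf by -0.077, Atp5mg by -0.11, Atp5mk by -0.020 and Atp5me by 0.0022, none past the threshold. Atp5if1, the inhibitor that blocks ATP hydrolysis by the enzyme, read 11.57, 11.47, 11.50, 11.39 and 11.38 with GATA-4 and 11.44, 11.33, 11.24, 11.16 and 11.33 with LacZ. It was the positive difference with the smallest p of the 44 genes, 0.16 (SE 0.069), and had a limma adjusted p of 0.196. A dimmer probe set of the same gene differed by -0.12, with overlap (adjusted p = 0.799 in limma). Another, below the filter on dim signals and so not tested, differed by -0.44, with overlap.

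Other genes of the pathway were read beside these. All 34 complex I subunit genes, which pass electrons from NADH to coenzyme Q, read lower, and 5 fell (14.7%): Ndufb10 by 0.27, Ndufb11 by 0.20, Ndufs3 by 0.27, Ndufs4 by 0.49 and Ndufv2 by 0.19 on the log2 scale, with limma adjusted p-values from 0.0167 to 0.0476. The complex I median was -0.16, beside -0.081 for complexes II to V. A difference between these sets was not tested. Of 12 coenzyme Q synthesis genes 4 fell and none rose, with a median of -0.30: Coq9, which presents the precursor to Coq7, by 0.29, the hydroxylase Coq7 by 0.46, the methyltransferase Coq3 by 0.35 and Pdss2, of side chain synthesis, by 0.46.

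Assembly factors of complexes II to V fell in 3 of 31 genes tested, none rose, and the median difference was -0.14. They were Uqcc1, for complex III (by 0.39), Cox10, which makes heme A precursor for complex IV (by 0.38), and Hccs, which attaches heme to cytochrome c (by 0.33), with limma adjusted p-values of 0.0144, 0.0311 and 0.0436. Of 11 genes of cristae and the inner membrane 3 fell: Immt, a core protein of the cristae junction, by 0.28, Chchd3 of the same complex by 0.30 and Tafazzin, which remodels cardiolipin, by 0.38. Among 11 genes of energy transfer across the mitochondrial membranes none changed (the creatine kinases Ckm and Ckmt2, the nucleotide and phosphate carriers Slc25a4, Slc25a5 and Slc25a3, the porins Vdac1, Vdac2 and Vdac3, the uncoupling proteins Ucp2 and Ucp3, and Ppif, a regulator of the permeability pore), with 2 at an unadjusted p under 0.05, and Ckmt2, the mitochondrial creatine kinase, differed by -0.13 (limma adjusted p = 0.0898). Of 17 regulators tested, Tfb2m, a mitochondrial transcription factor, fell by 0.34 and Pprc1, a coactivator related to PGC-1, rose by 0.59 (limma adjusted p = 0.0374 and 0.0306). These shares stand beside 2.66% lower and 3.71% higher over all genes. Complex I genes were bright too, with a median log2 signal of 12.39, and 8.53% of the bright genes fell.

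Markers of cell types were read in the same arrays. Of 11 cardiomyocyte markers measured none changed, with 1 at an unadjusted p under 0.05, and their median difference was -0.013. Their summed linear signal ran from 114550 to 119170 on GATA-4 arrays and from 117070 to 120500 on LacZ arrays. Each of these markers had a mean log2 signal of at least 12.5. Their values are given after quantile normalization only, where Myh7 read 13.72 on GATA-4 arrays 2 to 5 and LacZ array 5. Without the dim array the median of the 44 genes was -0.088 on that scale and -0.26 under median centring. How the cardiomyocyte markers read under median centring is not given here. Macrophage markers rose in 8 of 12 (Tyrobp, Cd68, Csf1r, Cd14, Fcer1g, Laptm5, Lyz2 and Mrc1), with a summed signal of 22269 to 28136 on GATA-4 arrays and 15984 to 18924 on LacZ arrays. Of 4 neutrophil markers tested, Csf3r and Il1r2 rose, and the sum of the 6 markers was 269 to 2454 with GATA-4, the dim array lowest, and 246 to 1003 with LacZ. None of 8 fibroblast, 7 endothelial, 6 smooth muscle and 7 T and NK cell markers changed, where 2, 2, 0 and 2 had an unadjusted p under 0.05 in limma. Their sums overlapped, at 41339 to 49479 with GATA-4 and 40190 to 45745 with LacZ for fibroblasts, 6161 to 7988 and 7379 to 8059 for endothelium, 9705 to 13949 and 9673 to 11043 for smooth muscle, and 811 to 1049 and 754 to 955 for T and NK cells, in the same order of groups. No marker lay at the floor on all arrays. The part of these cells in the differences of complexes II to V was not tested.

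**Figure D4:**
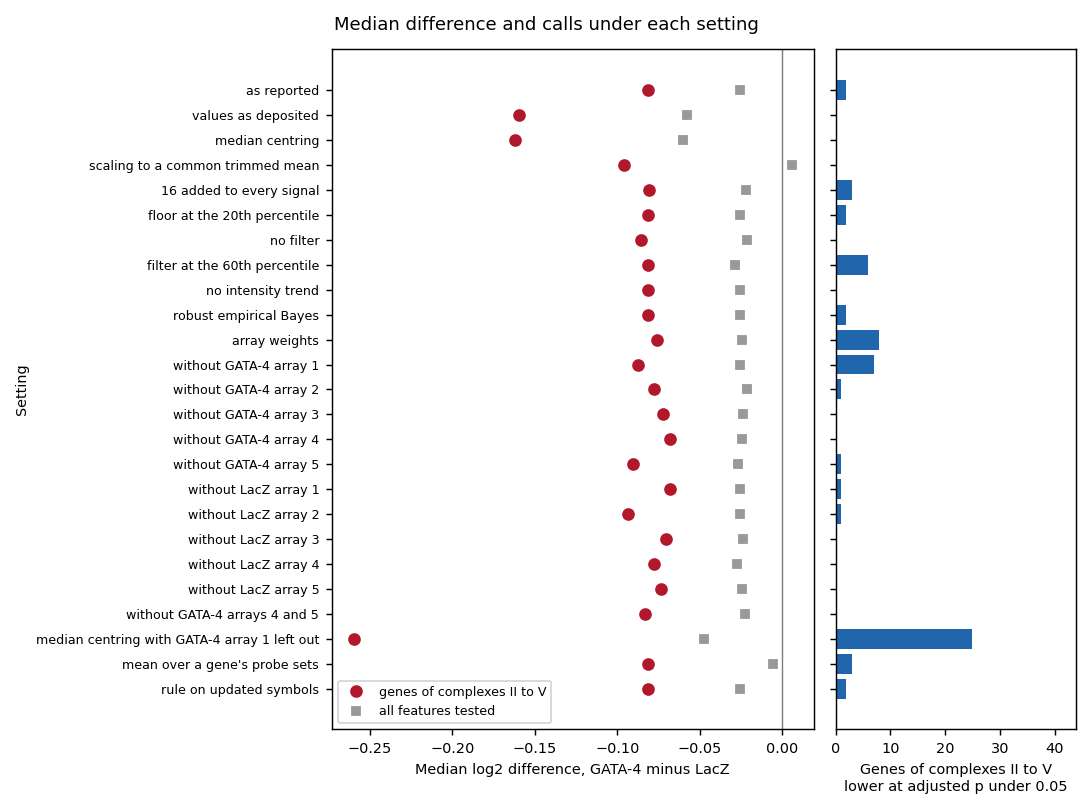
Left, the median log2 difference GATA-4 minus LacZ under each setting, for the genes of complexes II to V (circles) and for all features tested (squares); right, how many genes of complexes II to V were lower at an adjusted p under 0.05. The circles lie between -0.26 and -0.068 and left of the squares in every setting, while the count runs from 0 to 25. In the setting with -0.26 the median of genes as bright, not drawn, was -0.163.

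The direction of the median held under every setting tried, and the calls did not. With each array centred on its median instead of quantile normalized, the median of the 44 genes was -0.16 and none fell. With that centring and without the dim array it was -0.26 and 25 genes fell, where the median of genes as bright was -0.163. The median over all probe sets was -0.060 under that centring with every array kept, against -0.025 as reported.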

How the data were processed

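Probe set intensities on a linear scale, 1 array per sample, were deposited by the authors in 10 columns. The submitters' processing notes name GCOS, the scanner maker's software, but neither its version nor the algorithm or scaling is stated there. Of 31042 probe sets (57 controls apart), 20826 had 1 gene in GEO's platform annotation, 436 several and 9780 none; 20758 of the first matched RefSeq's table (GRCr8) by gene ID and took its symbol.

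The intensities as deposited were taken to log2, quantile normalized and floored at 0. Probe sets with a mean above the 40th percentile (log2 5.17; 18625) were fitted with limma 3.58.1 in R 4.3.3 (intensity trend, no covariates), with two-sided p-values adjusted by Benjamini-Hochberg over all of them at a threshold of 0.05. The brightest single-gene probe set stood for its gene. The fit was tested on simulated data that held no dim array and no normalization step, so that test does not cover either. Precision is limited by the number of arrays.

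Members and lists were chosen with earlier results of these data known. Genes given array by array are those past the threshold, those of the isoform pairs (Cox7a1 too, though its partner Cox7a2 was not measured) and, per complex, the smallest p and the highest signal; Uqcrc1, Atp5po, Atp5pf and Atp5if1 were added after their values were seen. Of other lists, changed members or the smallest p are named. Genes encoded in mitochondria were not analysed here.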

Additional observations from a re-analysis of the deposited data

Results flagged for a closer look

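Of 90 groups of 5 arrays (45 genes, both groups), 9 held an array set apart by Dixon's test at its 95% critical value, which chance alone passes in about 1 group in 20. The dim array accounted for 5. It was high for Cox5a (9.46, the other GATA-4 arrays 7.85 to 7.93) and Atp5f1b (13.68, others 13.50 to 13.53), and low for Uqcrh (12.85, others 12.95 to 12.98), Atp5f1c (13.28, others 13.45 to 13.47) and Atp5mk (12.38, others 12.65 to 12.73). GATA-4 array 5 was high for Atp5f1e (12.67, others 12.53 to 12.57). LacZ array 3 was high for Uqcrfs1 (13.15, others 13.10 to 13.11) and Atp5pb (13.20, others 13.11 to 13.13), and LacZ array 1 for Uqcr10 (13.38, others 13.23 to 13.25).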

How the results depend on the processing

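The median difference of the 44 genes was negative under every alternative run, and 33 of the 44 genes kept their sign in all of them. No gene of the set rose under any. The number that fell was 2 as reported, 0 with the values as deposited, median centring, trimmed mean scaling, no filter, no intensity trend or without GATA-4 arrays 4 and 5, 6 with the filter at the 60th percentile, 8 with array weights, and 25 with median centring and GATA-4 array 1 left out; leaving out single arrays gave 0 to 7. The median of -0.081 was -0.16 as deposited (-0.1595) and under median centring (-0.162), and -0.26 under that centring without GATA-4 array 1. In that last setting the median of genes as bright was -0.163. Changed probe sets, 988 as reported, numbered 9 as deposited, 619 with no filter, 539 with no intensity trend, 2890 with array weights, 201 without GATA-4 arrays 4 and 5, 2616 when GATA-4 array 1 was dropped under median centring, and 174 to 2849 with single arrays left out. The cause was not tested.

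Signs turned for 11 genes, none called as reported. As deposited, the differences were -0.084 for Atp5me, -0.030 for Cox6a1, -0.045 for Cox6a2, -0.040 for Cox7b and -0.081 for Sdhc. Under median centring they were -0.087 for Atp5me, -0.032 for Cox6a1, -0.048 for Cox6a2, -0.042 for Cox7b and -0.084 for Sdhc, and with GATA-4 array 1 also left out -0.24, -0.18, -0.21, -0.17 and -0.21, and -0.14 for Cox5a. Trimmed mean scaling gave 0.034 for Atp5f1b, -0.021 for Atp5me, -0.018 for Sdhc and 0.0058 for the median of all probe sets. Array weights gave 0.020 for Atp5f1e, -0.034 for Atp5me, 0.028 for Atp5mk, -0.093 for Cox5a, -0.011 for Cox6a1 and -0.017 for Sdhc. Without GATA-4 arrays 4 and 5 the values were 0.0074 for Atp5f1b, -0.11 for Atp5me, 0.0058 for Cox4i2, 8.1e-04 for Cox7a2l, -3.3e-04 for Sdhc and -0.016 for Cox4i1 minus Cox4i2. With single arrays left out, the ranges that crossed 0 were -0.036 to 0.0065 for Atp5f1b, -0.036 to 0.012 for Atp5f1e, -0.12 to 0.12 for Atp5me, -0.076 to 0.038 for Atp5mk, -0.40 to 0.094 for Cox4i2, -0.15 to 0.25 for Cox5a, -0.026 to 0.093 for Cox6a1, -0.0010 to 0.043 for Cox7b and -0.064 to 0.055 for Sdhc. They were -0.11 to 0.38 for Cox4i1 minus Cox4i2, -0.055 to 0.033 for Cox6a2 minus Cox6a1 and -0.033 to 0.0040 for Cox8b minus Cox8a, whose adjusted exact permutation p ran from 0.468 to 1 over all settings.

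No paired analysis was possible because the labels give the groups no shared replicate numbers. Differences of under about 10% rest on 5 arrays a group, 1 of them dim.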
